A study of Rattus norvegicus with 6 samples.

Results

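The genes described here encode receptors for vasoactive peptides and the peptide adrenomedullin, and they were chosen by symbol. Of the 10 symbols (Agtr1a, Ednra, Ednrb, Npr1, Npr2, Npr3, Adm, Ramp1, Ramp2 and Calcrl), 8 are listed in a table of 13526 genes, and Ramp1 and Ramp2 are not listed there and were not analysed. Of these 13526 genes 1637 have no symbol, so a symbol that is not listed, here or below, does not show that its gene was not expressed. The RNA came from primary vascular smooth muscle cells (VSMCs) of wild-type rat thoracic aorta, grown out from the media of male rats after the adventitia and intima had been stripped and then passaged. By the treatment protocol all samples were cultured in osteogenic media (OM), made with 3.5 mM CaCl2 and 10 mM β-GP to induce calcification, so the controls carried this treatment too. The OM plus EMPA group (n = 3) also received 1 μM empagliflozin, a drug that blocks the renal glucose transporter SGLT2, and the OM group (n = 3) did not. The sample titles instead read Pi and Pi+E, and Pi can also stand for inorganic phosphate, so the medium is as the protocol gives it. The labels give 5 days of treatment, whereas the legend of the sequencing data gives 4 days. VSMCs in media without the osteogenic supplements were not analysed here. Nothing states that the 3 samples of each group were grown from separate cultures or animals. The p-values therefore measure only how these samples spread, and that spread may be technical.

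Vasoactive peptides set the tone of the vessel wall through receptors on smooth muscle cells. Angiotensin II acting on Agtr1a and endothelin-1 acting on Ednra raise intracellular calcium through Gq proteins and contract the cell, while Ednrb also removes endothelin from the extracellular space. The natriuretic peptide receptors Npr1 and Npr2 are guanylate cyclases that make cGMP and relax the cell, and Npr3 lacks the cyclase domain and clears natriuretic peptides. Adrenomedullin is a secreted dilator peptide whose receptor is a complex of Calcrl with an accessory protein of the RAMP family, and it raises cAMP.

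Expression was measured as TPM, a measure of transcript abundance per length. Scaling by length lets levels be compared between genes, as far as the transcript models hold. The sum of TPM is almost equal between libraries, but the sequencing depth behind the values is unknown. Of the 8 listed genes 2 were higher with empagliflozin (Npr3 and Agtr1a), 2 were lower (Ednra and Calcrl) and 4 did not pass the test (Adm, Ednrb, Npr1 and Npr2). The test was limma on log2(TPM + 1) over the 12564 genes whose mean reached 1 TPM, a filter that all 8 listed genes passed, with a Benjamini-Hochberg adjusted p of at most 0.05. By the same rule 6.92% of all tested genes were called, 2.06% higher and 4.86% lower. The median log2 fold change was -0.13 over the 8 genes and -0.05 over all tested genes. The groups did not overlap for these 4 called genes (2 higher and 2 lower), as for 30.4% of all tested genes, 7.85% higher and 22.5% lower. With median-ratio scaling between libraries, the calls over all genes changed from 259 higher and 611 lower to 393 higher and 380 lower, and the 4 called genes here stayed called in the same direction. Mitochondrially encoded transcripts took 10.3 to 10.9% of TPM in the OM plus EMPA group and 8 to 9.69% in the OM group. Without them the log2 fold changes were 0.85 for Npr3, 0.45 for Agtr1a, -0.34 for Calcrl and -0.83 for Ednra, and all 4 stayed called.

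**Figure D1:**
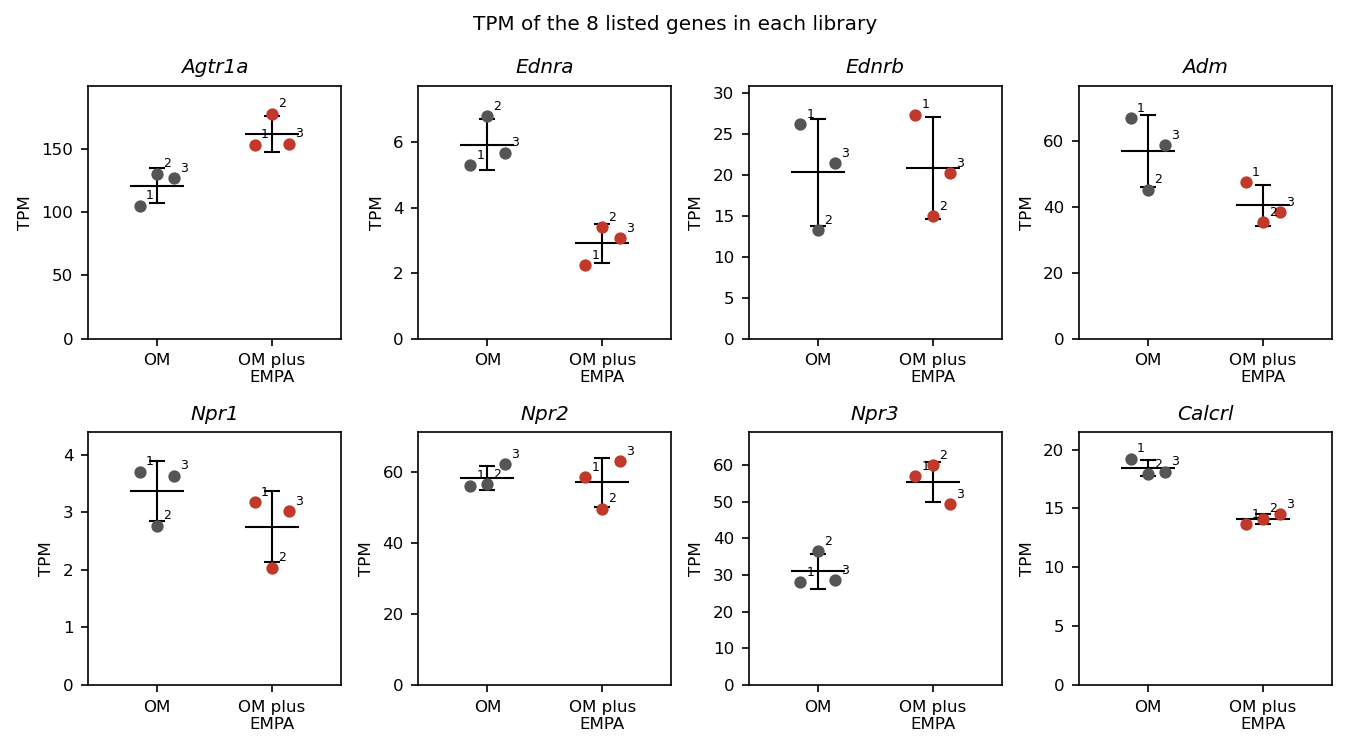
TPM of each of the 8 listed genes (vertical axes, each from 0) in the 3 OM libraries (grey) and the 3 OM plus EMPA libraries (red), numbered by replicate, with the group mean and SD in black. Agtr1a and Npr3 lay higher and Ednra and Calcrl lower in every OM plus EMPA library than in any OM library, whereas Ednrb spread from 13.27 to 27.31 TPM with no separation of the groups.

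The levels of the 8 genes covered a wide range. Agtr1a was the most abundant, with a mean of 141 TPM over the 6 libraries, above 91.6% of all listed genes. It was followed by Npr2 (57.8 TPM), Adm (48.7 TPM), Npr3 (43.2 TPM), Ednrb (20.5 TPM) and Calcrl (16.3 TPM). Ednra (4.42 TPM) and Npr1 (3.06 TPM) were the lowest, above 23.1% and 17.8% of listed genes. Some neighbours in this order did not differ beyond their spread. In the OM group the libraries of Npr2 and Adm overlapped, as did those of Ednrb and Calcrl, and in the OM plus EMPA group those of Ednra and Npr1 overlapped. Adm and Npr3 changed places between the groups, with means of 57 and 31 TPM without empagliflozin and 40.5 and 55.4 TPM with it. By the authors' pathway annotation, 6 of the 8 genes belong to vascular smooth muscle contraction, all except Ednrb and Npr3.

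The promoter windows of the 4 called genes are shown because they are the genes whose level differed between the groups. Each window is the RefSeq sequence (build GRCr8) from 250 bases before to 50 bases after a transcript start, read on the strand of the gene, and capitals mark matches to the motifs searched. The windows are Npr3 at chr2:62658716-62659015 on the minus strand, Agtr1a at chr17:34435383-34435682 on the minus strand, Ednra at chr19:47137674-47137973 on the plus strand and Calcrl at chr3:89932567-89932866 on the minus strand.
Npr3: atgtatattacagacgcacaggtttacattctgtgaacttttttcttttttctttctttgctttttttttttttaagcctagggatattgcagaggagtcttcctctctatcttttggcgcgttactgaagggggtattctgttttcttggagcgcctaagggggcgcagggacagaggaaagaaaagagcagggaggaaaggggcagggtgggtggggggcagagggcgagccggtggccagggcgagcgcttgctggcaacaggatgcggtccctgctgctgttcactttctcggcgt
Agtr1a: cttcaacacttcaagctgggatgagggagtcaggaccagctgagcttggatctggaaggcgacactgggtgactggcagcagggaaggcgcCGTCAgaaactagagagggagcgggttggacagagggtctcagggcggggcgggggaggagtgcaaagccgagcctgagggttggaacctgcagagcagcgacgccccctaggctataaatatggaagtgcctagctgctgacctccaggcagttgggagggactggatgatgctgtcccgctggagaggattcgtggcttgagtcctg
Ednra: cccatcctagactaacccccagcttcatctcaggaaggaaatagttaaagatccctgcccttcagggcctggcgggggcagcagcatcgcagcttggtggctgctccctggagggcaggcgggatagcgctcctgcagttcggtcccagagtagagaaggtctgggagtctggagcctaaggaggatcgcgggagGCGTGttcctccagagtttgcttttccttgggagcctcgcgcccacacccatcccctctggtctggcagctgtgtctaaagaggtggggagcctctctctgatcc
Calcrl: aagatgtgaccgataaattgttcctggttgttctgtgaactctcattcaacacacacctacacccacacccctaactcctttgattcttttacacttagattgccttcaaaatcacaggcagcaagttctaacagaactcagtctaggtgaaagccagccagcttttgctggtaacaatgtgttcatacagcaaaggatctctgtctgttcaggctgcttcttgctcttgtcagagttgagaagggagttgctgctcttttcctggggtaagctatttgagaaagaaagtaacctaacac
The motifs were searched on both strands. They were the core of the HIF site (ACGTG or GCGTG), the AP-1 site (TGANTCA), the core of the cAMP response element (TGACG), the CArG box bound by serum response factor, and the NF-κB site. The Agtr1a window held 1 core of the cAMP response element, on the opposite strand (written CGTCA above) and starting 159 bases before the start, a motif found in 21.2% of all 33469 windows of the same length. The Ednra window held 1 HIF core, starting 55 bases before the start, and 41.6% of all windows hold such a core. The Npr3 and Calcrl windows held none of the motifs searched, which says only that these letters are not in these windows. The AP-1 site, the CArG box and the NF-κB site, which are in 7.33%, 1.64% and 7.51% of all windows, were in none of the 4. GC content was 51.3% for Npr3, 60.7% for Agtr1a, 60.7% for Ednra and 43.3% for Calcrl. The windows of Npr3 and Ednra start at transcripts that begin 1732 and 564 bases inside the gene's outermost RefSeq start.

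Among the natriuretic peptide receptors, the clearance receptor Npr3 was higher in the OM plus EMPA group and the cyclases Npr2 and Npr1 did not pass the test. Npr3 was at 57, 59.99 and 49.35 TPM in OM plus EMPA replicates 1, 2 and 3 and at 28.01, 36.48 and 28.58 TPM in the OM replicates. The lowest OM plus EMPA library thus lay above the highest OM library. The group means were 55.4 ± 5.49 TPM (SD, n = 3) and 31 ± 4.73 TPM (SD, n = 3), a ratio of 1.79. Npr3 rose by 0.82 on the log2 scale (SE 0.11, 95% interval 0.56 to 1.08, adjusted p = 0.00725 from limma). It stayed called when any 1 library was left out, with log2 fold changes of 0.76 to 0.94. In the authors' table it lies on chromosome 2 from 60865492 to 60933443 on the minus strand, in a build not named in the sources used here. This locus extends beyond the reference gene through an assembled transcript and shares 2782 bases with a locus without a symbol on the same strand, listed at no more than 0.69 TPM in any library.

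Npr2, the receptor for C-type natriuretic peptide, was at 58.68, 49.75 and 63.2 TPM in OM plus EMPA replicates 1, 2 and 3 and at 56.28, 56.74 and 62.34 TPM in the OM replicates. The groups overlapped almost completely, and the log2 fold change was -0.04 (SE 0.09, 95% interval -0.24 to 0.17, adjusted p = 0.838 from limma). This interval leaves out a change of the size of that of Npr3. Npr1, the receptor for atrial and B-type natriuretic peptides, was at 3.18, 2.04 and 3.02 TPM in the OM plus EMPA replicates and at 3.71, 2.77 and 3.64 TPM in the OM replicates. Its level was low in every library, and its log2 fold change of -0.23 (SE 0.16, 95% interval -0.6 to 0.14, adjusted p = 0.421 from limma) was within the spread between replicates.

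The level of the CNP receptor relative to the clearance receptor therefore differed between the libraries of the groups. The ratio of Npr2 to Npr3 TPM was 1.03, 0.829 and 1.28 in the OM plus EMPA replicates and 2.01, 1.56 and 2.18 in the OM replicates. All OM libraries held more Npr2 than Npr3, whereas in the OM plus EMPA libraries the ratio lay near 1 and fell under it in replicate 2. On the log2 scale the mean ratio was 0.04 ± 0.31 with empagliflozin and 0.92 ± 0.25 without it (SD, n = 3 each), given without a test. The ratio of Npr2 to Npr1 was 18.5 to 24.4 with empagliflozin and 15.2 to 20.5 without it, which overlapped. A transcript for C-type natriuretic peptide itself, Nppc, was listed at 2.18 ± 1.25 TPM (SD, n = 3) and 1.53 ± 0.482 TPM (SD, n = 3) with a log2 fold change of 0.27 (adjusted p = 0.598 from limma).

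**Figure D2:**
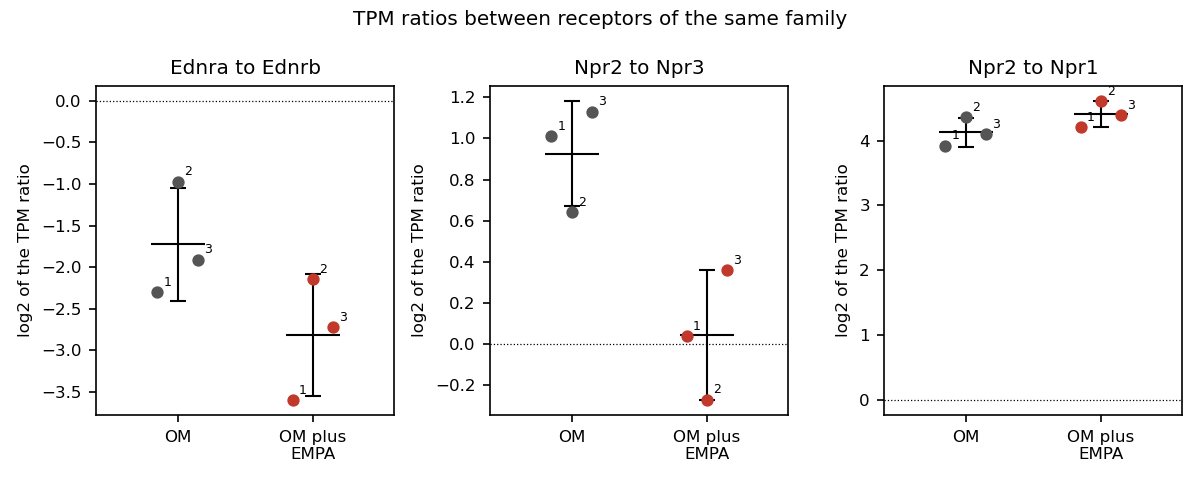
Log2 of the TPM ratio (vertical axes) of Ednra to Ednrb, Npr2 to Npr3 and Npr2 to Npr1 in the 3 OM (grey) and 3 OM plus EMPA libraries (red), numbered by replicate, with mean and SD in black and a dotted line at equal levels. The Npr2 to Npr3 ratios of the groups do not overlap, while those of Ednra to Ednrb overlap at -2.3 in OM replicate 1 and -2.14 in OM plus EMPA replicate 2.

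Agtr1a, the main receptor of angiotensin II in rat vessels, was higher with empagliflozin. It was at 153.31, 177.79 and 153.97 TPM in OM plus EMPA replicates 1, 2 and 3 and at 104.94, 130.29 and 126.94 TPM in the OM replicates. The groups did not overlap, with the lowest OM plus EMPA library at 153.31 TPM and the highest OM library at 130.29 TPM. The means of 162 ± 13.9 and 121 ± 13.8 TPM (SD, n = 3 each) gave a ratio of 1.34 and a log2 fold change of 0.42 (SE 0.09, 95% interval 0.21 to 0.64, adjusted p = 0.0378 from limma). This call was lost when any library other than OM replicate 2 was left out, with log2 fold changes of 0.32 to 0.48 and adjusted p of 0.0454 to 0.111 from limma over the 6 fits (0.0726, 0.111 and 0.0698 without OM plus EMPA replicates 1, 2 and 3, and 0.0713 and 0.0751 without OM replicates 1 and 3). It was also lost when the variance was not allowed to depend on expression level (adjusted p = 0.0827 from limma). Agtr1a lies on chromosome 17 from 34173325 to 34227034 on the minus strand in the authors' table. Rats have a close copy of this gene, Agtr1b, which is not listed, and how reads shared by the copies were assigned is not stated.

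Of the endothelin receptors, Ednra was lower with empagliflozin and Ednrb did not differ beyond its wide spread. Ednra was at 2.25, 3.4 and 3.07 TPM in OM plus EMPA replicates 1, 2 and 3 and at 5.3, 6.79 and 5.68 TPM in the OM replicates. Every OM library was above every OM plus EMPA library, and the means of 2.91 ± 0.592 and 5.92 ± 0.774 TPM (SD, n = 3 each) gave a ratio of 0.492. Ednra fell by 0.83 on the log2 scale (SE 0.14, 95% interval -1.16 to -0.5, adjusted p = 0.0167 from limma), and by 1.01 with a pseudocount of 0.1, since a pseudocount of 1 understates the change of a gene at this level. The call was lost without OM replicate 3 (log2 fold change -0.85, adjusted p = 0.0531 from limma) and kept when any of the other libraries was left out. Ednra lies on chromosome 19 from 30233571 to 30297049 on the plus strand in the authors' table.

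Ednrb was at 27.31, 14.96 and 20.2 TPM in OM plus EMPA replicates 1, 2 and 3 and at 26.16, 13.27 and 21.36 TPM in the OM replicates. In both groups replicate 1 was the highest and replicate 2 the lowest, and the SD was 29.8% and 32.1% of the mean. Its log2 fold change was 0.05 (SE 0.27, 95% interval -0.57 to 0.66, adjusted p = 0.934 from limma), an interval too wide to leave out a change as large as a rise of 0.66. Ednrb was the more abundant endothelin receptor in all 6 libraries. The ratio of Ednra to Ednrb TPM was 0.0824, 0.227 and 0.152 in the OM plus EMPA replicates and 0.203, 0.512 and 0.266 in the OM replicates. These ratios overlapped between the groups, with log2 means of -2.82 ± 0.74 and -1.73 ± 0.69 (SD, n = 3 each). Edn1, which encodes the ligand endothelin-1, was at 44.2 ± 2.74 and 42.6 ± 1.24 TPM (SD, n = 3 each), with a log2 fold change of 0.05 (95% interval -0.08 to 0.18, adjusted p = 0.636 from limma).

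Of the adrenomedullin genes, the receptor gene Calcrl was lower with empagliflozin, and the peptide gene Adm did not pass the test. Calcrl was at 13.65, 14.14 and 14.5 TPM in OM plus EMPA replicates 1, 2 and 3 and at 19.22, 17.91 and 18.13 TPM in the OM replicates. Its replicates lay closest together of the 8 genes, with an SD of 3.03% and 3.81% of the mean, and the groups did not overlap. Calcrl fell by 0.36 on the log2 scale (SE 0.06, 95% interval -0.5 to -0.22, adjusted p = 0.0152 from limma), a ratio of 0.766. With OM plus EMPA replicate 1 or 2 left out the adjusted p from limma was 0.0524 and 0.0548, and with OM replicate 1 or 3 left out it was 0.0548 and 0.0518, while the log2 fold change stayed between -0.38 and -0.33. Calcrl lies on chromosome 3 from 69428795 to 69525910 on the minus strand in the authors' table and shares 830 bases with a locus without a symbol on the opposite strand. That locus was at 7.54, 5.99 and 8.31 TPM in the OM plus EMPA replicates and at 12.97, 9.27 and 10.59 TPM in the OM replicates, also without overlap of the groups. The shared bases lie outside the reference gene, in the stretch of the locus that an assembled transcript adds. Strand-specific counting is not stated, so reads from the shared bases cannot be told apart.

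Adm was at 47.54, 35.44 and 38.41 TPM in OM plus EMPA replicates 1, 2 and 3 and at 67.05, 45.21 and 58.78 TPM in the OM replicates. OM plus EMPA replicate 1 lay above OM replicate 2, so the groups overlapped. The means were 40.5 ± 6.31 and 57 ± 11 TPM (SD, n = 3 each), with a log2 fold change of -0.48 (SE 0.15, 95% interval -0.83 to -0.12, adjusted p = 0.11 from limma). Without OM replicate 2 the log2 fold change was -0.63 and passed the test (adjusted p = 0.0399 from limma). Adm did not pass when any other library was left out. Over all fits with 1 library left out, its log2 fold change ranged from -0.63 to -0.35 and its adjusted p from limma reached 0.285.

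Calcrl reaches the cell surface and binds adrenomedullin only together with a RAMP. Ramp3 was listed at 276 ± 11.1 TPM with empagliflozin and 317 ± 17.9 TPM without it (SD, n = 3 each), well above Calcrl in every library. Its libraries did not overlap, at 264.56 to 286.78 and 302.17 to 336.95 TPM, and its log2 fold change of -0.20 did not pass the test (adjusted p = 0.0658 from limma). Ackr3, an atypical receptor that scavenges adrenomedullin and the chemokine CXCL12, was at 147 ± 14.5 and 175 ± 20 TPM (SD, n = 3 each) with a log2 fold change of -0.25 (adjusted p = 0.165 from limma). Pam, the enzyme that amidates the end of adrenomedullin and of many other peptides, was higher with empagliflozin. Its level was 206.04, 205.9 and 199.58 TPM in the OM plus EMPA replicates and 163.84, 170.65 and 159.13 TPM in the OM replicates. Pam rose by 0.31 on the log2 scale (SE 0.04, 95% interval 0.21 to 0.4, adjusted p = 0.00714 from limma) and stayed called when any 1 library was left out. Its locus in the authors' table, from 97998524 to 98273711, extends beyond the reference gene, from 98122916 to 98271965. Of the 25 transcripts of this locus 19 are assembled, so its TPM may hold more than the reference gene. Gpr182, an atypical chemokine receptor, was listed at 0 in all 3 OM libraries and at 1.91, 0.79 and 2.41 TPM in the OM plus EMPA replicates. Its mean was under the filter and it was not tested.

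**Figure D3:**
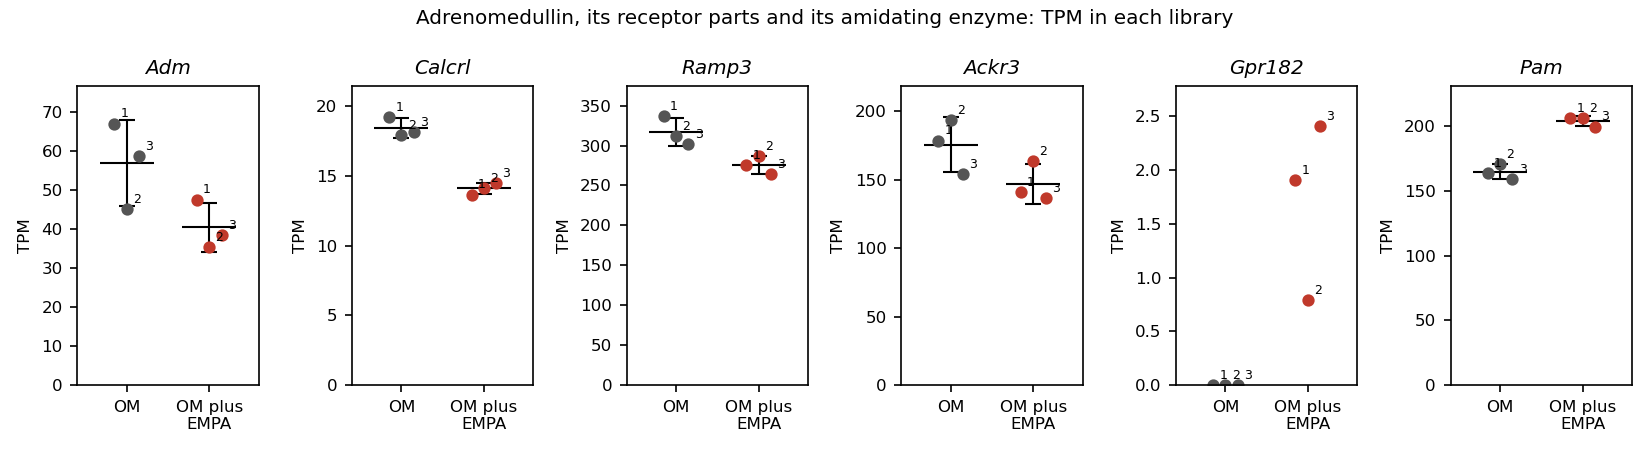
TPM (vertical axes, each from 0) of Adm, its receptor parts Calcrl and Ramp3, the atypical receptors Ackr3 and Gpr182 and the amidating enzyme Pam in the 3 OM (grey) and 3 OM plus EMPA libraries (red), numbered by replicate, with mean and SD in black except for Gpr182, which has values of 0. Calcrl and Ramp3 lay lower and Pam higher in every OM plus EMPA library than in any OM library, while Adm and Ackr3 overlapped.

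The plot of differences sets the 8 genes beside each other. The intervals of Npr3, Agtr1a, Calcrl, Ednra and Adm lie to 1 side of 0, although Adm did not pass after adjustment, and those of Ednrb, Npr1 and Npr2 include 0. Leaving out 1 library turned the sign of Ednrb, between -0.21 and 0.25, and of Npr2, between -0.11 and 0.06, and of none of the other 6 genes.

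**Figure D4:**
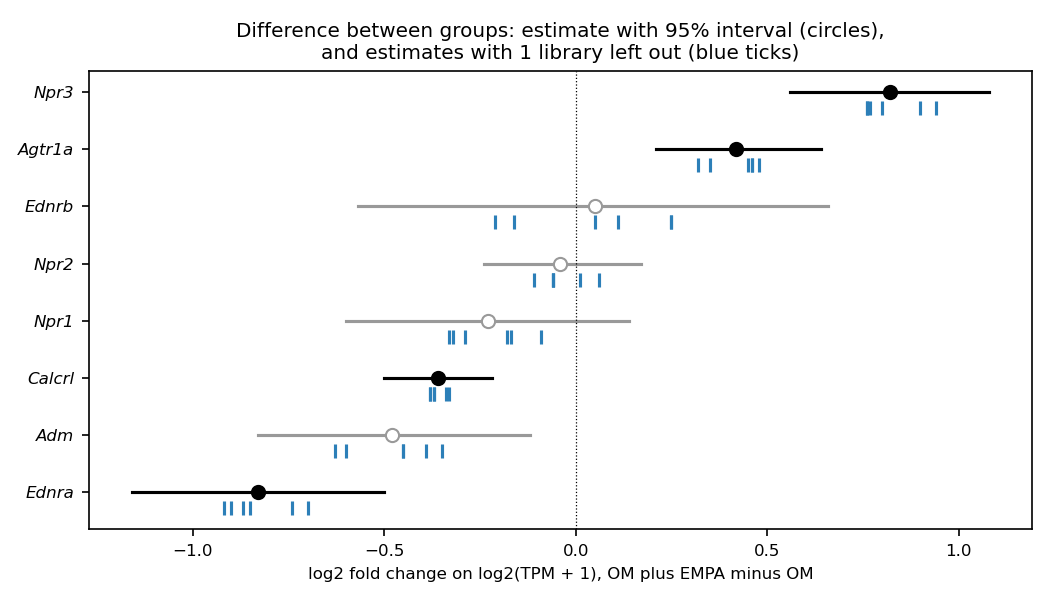
Difference in mean log2(TPM + 1), OM plus EMPA minus OM (horizontal axis), of the 8 genes, with the 95% interval from limma as a line and, under it in blue, the 6 estimates with 1 library left out. Filled circles are the 4 called genes, and the values run from -0.83 for Ednra to 0.82 for Npr3.

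The other genes of these pathways were counted in 5 lists. At an unadjusted p under 0.05 in limma, 807 of all 12564 tested genes were higher and 2217 lower. The list counts at that threshold, here and below, are set against these numbers. Of 21 peptide ligands 4 were listed and 2 tested, Edn1 and Nppc, and limma called 0, also at an unadjusted p under 0.05. Agt, the precursor of angiotensin II, was at 0.22 ± 0.104 and 0.47 ± 0.226 TPM (SD, n = 3 each), under the filter. Of 19 genes of peptide processing and degradation 14 were tested, of which Pam rose and 0 fell (3 fell at an unadjusted p under 0.05 in limma). Ece1, which cleaves the endothelin precursor, was at 71.2 ± 1.83 and 66.5 ± 1.64 TPM (SD, n = 3 each) with a log2 fold change of 0.10 that did not pass (adjusted p = 0.218 from limma), and Ace was at 0.163 ± 0.121 and 0.223 ± 0.106 TPM (SD, n = 3 each), under the filter. The median log2 fold change of this list was -0.05.

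Of 20 other receptors and receptor parts 5 were tested (Ramp3, Ackr3, Avpr1a, Bdkrb1 and Bdkrb2), and limma called 0 higher and 1 lower (0 higher and 3 lower at an unadjusted p under 0.05). The called gene was Bdkrb2, the constitutive bradykinin receptor, at 5.32 ± 1.51 and 9.64 ± 1.77 TPM (SD, n = 3 each), with a log2 fold change of -0.76 (adjusted p = 0.0471 from limma). The call was kept in 1 of the 6 fits with a library left out, without OM plus EMPA replicate 3, and the adjusted p reached 0.146. It was also lost under median-ratio scaling (adjusted p = 0.0627 from limma). The highest of this list was Ramp3, and its median log2 fold change was -0.25.

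Downstream of the receptors 1 gene was called in each of the 2 signalling lists, set against 6.92% of all tested genes. Of 24 genes of G protein and calcium signalling 20 were tested, of which 0 rose in limma and 1 fell (1 higher and 4 lower at an unadjusted p under 0.05). The gene that fell was Arrb1, which encodes a β-arrestin that desensitises receptors. Arrb1 was at 2.25 ± 0.305 and 3.61 ± 0.345 TPM (SD, n = 3 each) with a log2 fold change of -0.50 (adjusted p = 0.0483 from limma), and it was not called when any 1 library was left out, with adjusted p of 0.0734 to 0.143. Rgs2, which limits Gq signalling, had the highest level of this list in both groups, at 496 ± 34.2 and 590 ± 41 TPM (SD, n = 3 each), and a log2 fold change of -0.25 (adjusted p = 0.0739 from limma). Of 24 genes of cyclic nucleotide signalling 16 were tested, of which 0 rose and 1 fell in limma (0 higher and 3 lower at an unadjusted p under 0.05). This was Adcy7, an adenylate cyclase, at 53.9 ± 2.35 and 64.4 ± 1.65 TPM (SD, n = 3 each), with a log2 fold change of -0.25 (adjusted p = 0.0245 from limma). It stayed called with either OM replicate 2 or OM plus EMPA replicate 3 left out and not without any of the other 4 libraries, and its adjusted p under median-ratio scaling was 0.0575. Gnas, the G protein subunit that couples receptors such as Calcrl to cAMP, had the highest level of this list, at 813 ± 17 and 777 ± 22.1 TPM (SD, n = 3 each), with a log2 fold change of 0.06 (adjusted p = 0.395 from limma). Prkg1, the cGMP-dependent kinase downstream of the natriuretic peptide receptors, is not listed. The medians of these lists, -0.05 and -0.07, were close to the median of all tested genes.

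**Figure D5:**
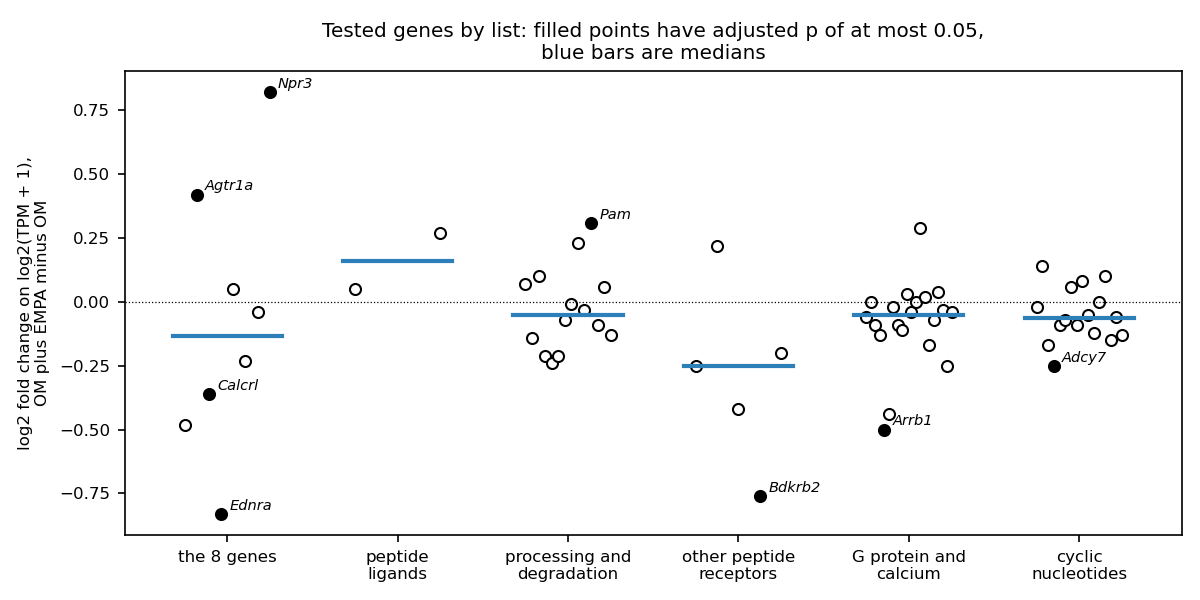
Difference in mean log2(TPM + 1), OM plus EMPA minus OM (vertical axis), of each tested gene among the 8 genes and in the 5 pathway lists. Filled, named points are the genes called by limma and blue bars are medians, which lie at -0.13 for the 8 genes and at -0.25 for the 5 other receptors and receptor parts.

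The genes whose log2(TPM + 1) followed each called gene most closely over the 6 libraries were named as a description. They were Fnbp1, P3h4 and Ucp2 for Npr3 (Pearson r of 0.9966, 0.9966 and 0.9965), Ccn1, Sh3tc2 and Edem3 for Agtr1a (0.9963, 0.9935 and 0.9912), Samd9, Pfkp and Ifit2 for Calcrl (0.9989, 0.9988 and 0.9988) and Scarf1, Med6 and Nup153 for Ednra (0.9944, 0.9940 and 0.9931). The 6 libraries fall into 2 groups, so that these coefficients hold the group difference as well as the spread within groups, and each was among the 3 highest of all tested genes with a symbol.

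The cell type was checked against marker genes, because several of these receptors are also known from endothelial and other cells. Of 8 smooth muscle markers 7 are listed, all except Des. Their summed level was 2478 to 2925 TPM with empagliflozin and 1756 to 2158 TPM without it, most of it Tagln (means of 2050 and 1530 TPM). Of the 6 tested, Smtn (log2 fold change 0.15, adjusted p = 0.166) and Myh11 (-0.17, adjusted p = 0.455) did not pass in limma. The other 4 (Cnn1, Lmod1, Acta2 and Tagln) rose, and 0 fell (0 at an unadjusted p under 0.05). Of all tested genes 2.06% were called higher and 4.86% lower. Leaving out OM plus EMPA replicate 2 ended all 4 of these calls, OM replicate 1 or 3 those of Lmod1, Acta2 and Tagln, OM plus EMPA replicate 3 those of Acta2 and Tagln, and OM plus EMPA replicate 1 that of Tagln. Of 9 endothelial markers only Erg is listed, at 2.79 to 3.89 and 1.7 to 3.89 TPM, and Pecam1, Cdh5, Vwf and Kdr are not. Of 9 macrophage markers Cd68 and Cd14 are listed, with a sum of 30.1 to 40 and 40.5 to 44.3 TPM, and Ptprc, Csf1r and Adgre1 are not. Cd68, which other cells with many lysosomes also express, fell by 0.83 on the log2 scale (adjusted p = 0.0378 from limma), a call lost without OM plus EMPA replicate 3 or any 1 OM replicate, with adjusted p up to 0.114. Of 7 fibroblast markers 6 are listed, with a sum of 4765 to 5515 TPM with empagliflozin and 6163 to 6989 TPM without it, most of it Dcn, which cultured VSMCs also express. The 5 tested did not move in the same direction, since Dcn and Pdgfra fell by 0.39 and 0.35 on the log2 scale (adjusted p = 0.0411 and 0.0488 from limma) while Col14a1 rose by 0.91 (adjusted p = 0.00552 from limma). Col14a1 stayed called with any 1 library left out, Dcn stayed called only without OM plus EMPA replicate 3, and Pdgfra was not called in any of the 6 fits with a library left out. The smooth muscle, macrophage and fibroblast sums separated the groups as the 4 called receptor genes did, and their part in the result was not tested. In such bulk samples fewer cells of a type and less RNA per cell cannot be told apart.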

How the data were processed

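RNA-seq values of 6 libraries of rat VSMCs were analysed. The authors deposited TPM per gene, with ids that join Ensembl genes and assembled transcripts. The tools in the submitters' processing notes are RSEM, HISAT2 2.0.5, DESeq2 and fastp, with no roles stated. The sources used here give no genome build. The same deposited table holds the authors' log2 fold changes and their p-values with FDR, which were not used, and a smaller table, also not used, repeats some of its genes. Depth and counting precision cannot be recovered from TPM.

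Libraries were grouped by the treatment label. Groups were compared with limma 3.58.1 in R 4.3.3 on log2(TPM + 1) over genes whose mean reached 1 TPM, with the group as the only term and a variance trend (4 residual degrees of freedom, 3.8 prior), and Benjamini-Hochberg adjustment over the 12564 genes tested. Intervals are limma's 95% intervals. Python 3.11.15 with pandas 2.3.3 and matplotlib 3.10.9 was used for summaries and plots. The fit was tested on simulated data.

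All 10 chosen genes were named, with the called genes and the most abundant gene of each pathway list, the 3 genes most correlated with each called gene, and the motifs searched. Ece1, Ace, Agt, Nppc, Ramp3, Ackr3, Gpr182 and Prkg1 were added after values were seen. The genes, lists and motifs were chosen with earlier results of these data known. Some markers are not reported here. Of the 10 genes 8 have a RefSeq promoter window, all except Npr2 and Ramp2. Alternatives were a pseudocount of 0.1, no filter, a filter of 1 TPM in every library, 3 other scalings, the replicate number as a block, no variance trend, array weights, and each library left out in turn.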

Additional observations from a re-analysis of the deposited data

How the results depend on the processing

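Npr3 kept its direction and its call under every alternative run, and Ednra under every alternative except without OM replicate 3. With the median-ratio scaling 393 genes were higher and 380 lower, and with the upper-quartile scaling 406 and 383. Under both, 0 genes fell in the lists of other receptors, G protein and calcium signalling, and cyclic nucleotide signalling, and Npr2 turned to 0.02 and 0.03. TPM without mitochondrial genes left 0 lower in the lists of other receptors and of G protein signalling, array weights 0 lower among other receptors, and a pseudocount of 0.1 left 0 lower in the G protein list. Without a filter, 1 other receptor was higher and 0 were lower. This was Gpr182, which was listed at 0 in every OM library, so the OM group had no spread for it. Without the variance trend 154 genes were higher and 366 lower, 1 of the 8 genes was higher (Npr3), and 0 other receptors and 0 genes of cyclic nucleotide signalling were lower. The cause of these changes was not tested.

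With the replicate number as a block 449 genes were higher and 951 lower, Adm was called (log2 fold change -0.48, adjusted p = 0.0066 from limma), and 2 genes of peptide processing, 3 other receptors and 2 genes of G protein signalling were lower, with 1 of the last list higher. Deviations from the group means correlated at 0.1, 0.16 and 0.06 between libraries with the same number and at -0.12 to 0.02 otherwise, so every library correlated best with its own number, but the labels name nothing that these numbers share.

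With 1 library left out, 80 to 216 genes were higher and 245 to 438 lower. Of the 8 genes 1 to 2 were higher and 0 to 3 lower, of other receptors 0 to 1, of G protein signalling 0 to 0 and of cyclic nucleotide signalling 0 to 1 were lower. Ednrb ranged from -0.21 to 0.25 and Npr2 from -0.11 to 0.06. The difference in log2 ratio ranged from -1.43 to -0.7 for Ednra to Ednrb, from -1.04 to -0.73 for Npr2 to Npr3 and from 0.17 to 0.39 for Npr2 to Npr1. TPM keep no depth, so low levels such as those of Npr1 and Ednra carry an unknown counting error.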
